A study of Mus musculus with 12 samples.

Results

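Carriers that move nutrients across the wall of brain vessels were followed in the brains of newborn mice whose vascular cells were targeted for loss of Reck. The 9 genes were chosen by name: Slc2a1, Slc7a1, Slc7a5, Slc3a2, Slc38a5, Slc38a3, Slc16a1, Slc6a6 and Mfsd2a. Each had an entry of its own among the 23983 entries of the deposited table for cortex and of that for subcortex, and all 9 were tested by the authors in both tissues. The tissues came from Reck vascular knockout mice (vKO), of the genotype Reck flex2/Δex1 with Tie2Cre, and from wild-type mice (WT). All were at postnatal day 0 and of mixed strain, and each of the 4 groups (vKO cortex, WT cortex, vKO subcortex, WT subcortex) had 3 RNA-seq libraries. Tie2Cre recombines in endothelial cells and also in blood lineages, and the labels do not say in which cells the Δex1 allele is present. The labels give neither the sex of the mice nor whether a library is a single animal.

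The values are FPKM, fragments scaled to transcript length and to the number mapped, so levels of different genes can be set side by side, though only roughly. In cortex the ratios of vKO to WT still moved with transcript length, as described below, so levels of genes of unlike length shift between the cortex groups. The authors give 1 FPKM per gene and group, computed from the 3 libraries, so no spread between libraries can be shown and depth is unknown. Log2 ratios below are log2((vKO FPKM + 1)/(WT FPKM + 1)), which understates changes of low genes. "Fell" and "rose" are used for genes with a q-value under 0.05 in the authors' deposited table. In these whole-tissue samples, fewer vessel cells and less RNA per vessel cell cannot be told apart.

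Endothelial cells of the brain are sealed by tight junctions, so polar nutrients enter the tissue through carriers in their membranes. Wnt ligands of neural cells, received on the endothelium by frizzled receptors with the co-receptors Gpr124 and Reck, are known to maintain this barrier state. Slc2a1 carries glucose and Slc16a1 carries lactate, pyruvate and ketone bodies, which are major fuels of the suckling brain. Slc7a1 carries arginine and lysine. Slc7a5 carries large neutral amino acids and works as a dimer with the heavy chain Slc3a2. Slc38a5 and Slc38a3 carry glutamine and other neutral amino acids together with sodium, Slc6a6 carries taurine, and Mfsd2a carries lipids that contain docosahexaenoic acid. Mfsd2a and Slc38a5 are known as markers of brain endothelium, whereas Slc3a2, Slc7a5, Slc6a6, Slc38a3 and Slc2a1 are also made by other cells of the brain.

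Slc38a5 was the member with the lowest level in every group and the lowest ratio in both tissues. It lies on chromosome X, 8271381 to 8280176 in mm10. It stood at 0.695 FPKM in vKO cortex, against 6.79 in WT cortex, and at 1.94 FPKM in vKO subcortex, against 4.21 in WT subcortex. It fell in both tissues, 9.78-fold in cortex (log2 ratio -2.20, q-value 0.000806 in the authors' deposited table) and 2.17-fold in subcortex (-0.82, q-value 0.0323 in the authors' deposited table). Ordered by log2 ratio, it was 35th from the bottom of 13594 tested genes in cortex and 80th from the bottom of 13735 in subcortex. Among tested genes with an Slc symbol it was the lowest of 240 in cortex and in place 2 from the bottom of 254 in subcortex.

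Promoter windows were available in RefSeq (GRCm38.p6) for 6 of the 9 members, from 250 bases before to 50 bases after the start of transcription. Slc7a5, Slc38a3 and Slc6a6 were not matched. Those of Slc38a5, Mfsd2a and Slc7a1, which fell in cortex, and of Slc2a1, which rose in subcortex, are shown so that the letters near their starts can be compared. Capitals mark matches on either strand to CTTTGAT or CTTTGAA (the core read by the Wnt effectors TCF and LEF), ACGTG (the core of hypoxia response elements, part of the E-box CACGTG) or TGATGNA (read by the stress factor ATF4). For Slc7a1, which has starts at 2 places, the downstream window is shown. The windows are chrX:8271131-8271430 on the plus strand for Slc38a5, chr4:122961139-122961438 on the minus strand for Mfsd2a, chr5:148392766-148393065 on the minus strand for Slc7a1 and chr4:119108495-119108794 on the plus strand for Slc2a1.
Slc38a5: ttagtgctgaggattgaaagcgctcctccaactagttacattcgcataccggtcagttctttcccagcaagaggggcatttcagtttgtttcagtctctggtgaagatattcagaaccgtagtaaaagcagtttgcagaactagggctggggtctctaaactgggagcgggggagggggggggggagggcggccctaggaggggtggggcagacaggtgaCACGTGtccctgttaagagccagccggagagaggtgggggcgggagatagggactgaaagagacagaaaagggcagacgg
Mfsd2a: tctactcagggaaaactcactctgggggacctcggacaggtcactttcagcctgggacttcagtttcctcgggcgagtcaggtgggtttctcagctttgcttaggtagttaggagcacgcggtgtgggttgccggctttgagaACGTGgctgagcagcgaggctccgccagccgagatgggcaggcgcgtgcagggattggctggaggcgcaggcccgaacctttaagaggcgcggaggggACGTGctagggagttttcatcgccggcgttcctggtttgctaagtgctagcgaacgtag
Slc7a1: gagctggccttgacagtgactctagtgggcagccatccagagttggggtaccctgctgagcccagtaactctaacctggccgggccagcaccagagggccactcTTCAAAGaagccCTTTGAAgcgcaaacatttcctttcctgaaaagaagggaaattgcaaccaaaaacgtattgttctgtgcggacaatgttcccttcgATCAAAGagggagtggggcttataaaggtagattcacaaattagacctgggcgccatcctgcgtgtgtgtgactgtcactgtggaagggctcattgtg
Slc2a1: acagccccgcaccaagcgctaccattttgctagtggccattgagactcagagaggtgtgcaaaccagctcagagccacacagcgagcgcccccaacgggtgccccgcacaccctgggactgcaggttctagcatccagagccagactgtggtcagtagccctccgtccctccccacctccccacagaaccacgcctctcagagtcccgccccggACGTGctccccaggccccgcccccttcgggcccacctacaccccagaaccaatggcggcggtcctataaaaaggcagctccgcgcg
The downstream window of Slc7a1 held 2 matches to CTTTGAA and 1 to CTTTGAT, and its upstream window held no match to the 4 motifs. The windows of Slc38a5, Mfsd2a and Slc2a1 held ACGTG and neither form of the TCF core. In Slc38a5 the matches on the strands overlap in 1 run of capitals. Of the 7 windows of the members, 5 held ACGTG, as did 19.6% of the 32851 windows in the RefSeq table. CTTTGAA stood in 2 of the 7 and in 5.14% of the table, CTTTGAT in 1 and in 3.73%, and TGATGNA in 0 and in 12.2%. The 2 windows with CTTTGAA were the downstream one of Slc7a1 and that of Slc3a2. The windows of Slc3a2 and Slc16a1, members called in neither tissue, are not shown, and both held ACGTG. These matches describe letters, and no binding was measured here.

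**Figure D1:**
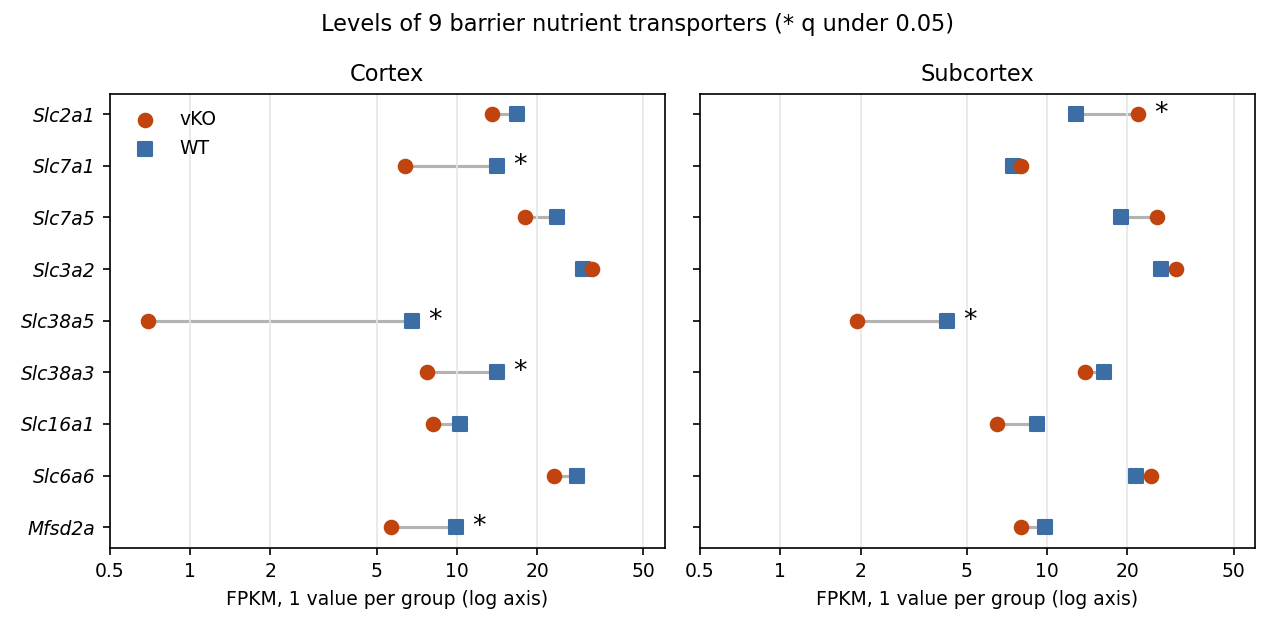
FPKM of the 9 carriers (log axis) in vKO (circles) and WT (squares), 1 value per group computed by the authors from 3 libraries, in cortex and subcortex; asterisks mark q-values under 0.05. Slc38a5 lies furthest left in vKO cortex at 0.695 FPKM, and Slc2a1 in subcortex is the marked gene whose vKO value, 21.9 FPKM, lies right of its WT value, 12.8 FPKM.

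In cortex, 4 of the 9 carriers fell and 0 rose under q-values from the authors' deposited table, where 11.3% of tested genes fell and 8.15% rose. The median log2 ratio of the 9 was -0.38, beside 0.00 over all tested genes, and 8 of 9 had a lower value in vKO, beside 49.6% of all tested genes. At an unadjusted p-value under 0.05 in the same table, 7 carriers were lower and 0 higher. Of all 13594 tested genes, 2319 were lower and 2048 higher at that threshold. The 4 that fell were Slc38a5, Slc7a1, Slc38a3 and Mfsd2a, all at a p-value of 5e-05, the lowest that table lists. The same 4 passed a q-value under 0.01, which 7.28% of tested genes passed as lower and 4.01% as higher. They also passed with a minimum of 1.5-fold (6.83% lower, 4.35% higher) and with p-values adjusted over genes at 1 FPKM or more (11.3% lower, 8.19% higher).

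Slc7a1 (chromosome 5, 148327410 to 148399904), the cationic amino acid carrier, stood at 6.37 FPKM in vKO cortex, against 14.1 in WT cortex, a 2.21-fold fall (log2 ratio -1.03, q-value 0.000806 in the authors' deposited table). Slc38a3 (chromosome 9, 107651155 to 107668968), the glutamine carrier that astrocytes also make, stood at 7.73 FPKM in vKO cortex, against 14.1 in WT cortex (-0.79). Mfsd2a (chromosome 4, 122946851 to 122961188), the lipid carrier, stood at 5.65 FPKM in vKO cortex, against 9.96 in WT cortex (-0.72). These 3 genes thus fell 1.76-fold to 2.21-fold, far less than Slc38a5.

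The other 5 carriers were not called in cortex. Slc7a5 stood closest to the threshold, with 17.9 FPKM in vKO and 23.6 in WT (log2 ratio -0.38, q-value 0.0530 in the authors' deposited table). Its partner Slc3a2 had 32.2 FPKM in vKO and 29.6 in WT (0.12, q-value 0.634 in the authors' deposited table) and was the single member with a higher value in vKO cortex. The level of Slc7a5 was therefore 0.557 of that of Slc3a2 in vKO cortex, against 0.798 in WT cortex. Part of this shift follows the trend of transcript length and GC content described below. Genes like Slc7a5 had a median log2 ratio of -0.14 in cortex and genes like Slc3a2 had 0.07. With that trend removed, Slc7a5 stood at -0.24 and Slc3a2 at 0.04. Slc16a1 had 8.14 FPKM in vKO and 10.3 in WT (-0.30), Slc2a1 had 13.6 in vKO and 16.9 in WT (-0.29), and Slc6a6 had 23.1 in vKO and 28.2 in WT (-0.27). The q-values of these 3 in the authors' deposited table ran between 0.119 and 0.173.

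In subcortex, 1 of the 9 fell and 1 rose under q-values from the authors' deposited table, where 0.262% of tested genes fell and 0.451% rose. The median log2 ratio of the 9 was 0.09, beside -0.00 over all tested genes. At an unadjusted p-value under 0.05 in that table, the lower members numbered 2 and the higher ones 2. Of all 13735 tested genes, 388 were lower and 479 higher at that threshold. Calls in either direction took in 0.714% of tested genes there. The member that fell was Slc38a5. The member that rose was the glucose carrier Slc2a1 (chromosome 4, 119108745 to 119137329), with 21.9 FPKM in vKO subcortex, against 12.8 in WT subcortex, a 1.71-fold rise (log2 ratio 0.73, q-value 0.0104 in the authors' deposited table). With p-values adjusted over genes at 1 FPKM or more, Slc38a5 and Slc2a1 were again the members called, where 0.716% of genes were called, 0.453% as higher and 0.263% as lower. Slc2a1, like Slc7a5 and Slc6a6, overlaps a gene annotated on the opposite strand (GENCODE), and reads of such partners cannot be told apart where counting did not use strand. The ratio of Slc2a1 was 98th from the top of 13735 tested genes and in place 2 from the top of 254 tested Slc genes. In cortex its ratio was in place 71 from the bottom of 240.

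Slc7a5 and Slc16a1 had the ratios furthest from 0 among the 7 members not called in subcortex. Slc7a5 had 25.9 FPKM in vKO and 18.9 in WT (log2 ratio 0.43, p-value 0.009 and q-value 0.371 in the authors' deposited table), and Slc16a1 had 6.49 in vKO and 9.15 in WT (-0.44, p-value 0.0047 and q-value 0.267 in the authors' deposited table). Slc7a5 stood at 0.849 of the level of Slc3a2 in vKO subcortex, against 0.708 in WT subcortex, the reverse order of the cortex values. Slc7a1 had 7.98 FPKM in vKO and 7.44 in WT (0.09), and Mfsd2a had 7.97 in vKO and 9.85 in WT (-0.28). Slc38a3 had 13.9 FPKM in vKO and 16.4 in WT (-0.22). Slc3a2 had 30.4 FPKM in vKO and 26.7 in WT, and Slc6a6 had 24.6 in vKO and 21.6 in WT, both at a log2 ratio of 0.18. The q-values of these 5 in the authors' deposited table ran between 0.961 and 0.999.

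**Figure D2:**
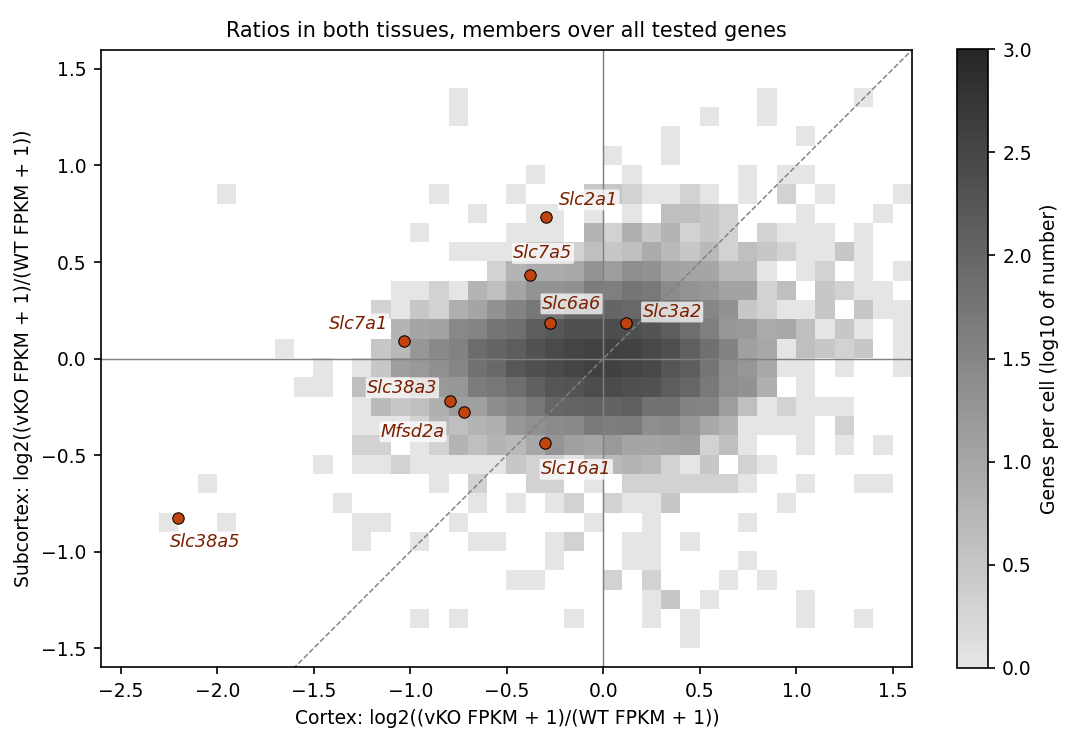
Log2((vKO FPKM + 1)/(WT FPKM + 1)) in cortex (horizontal) and in subcortex (vertical) for the 9 carriers (labelled points) over 13168 genes tested in both tissues, drawn as shaded cells 0.1 wide, with darker cells holding more genes; 65 genes lie outside the axes. All carriers but Slc16a1 lie above the dashed line of equal ratios, and Slc38a5 stands far to the lower left.

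The tissues differed in these values. The log2 ratio was higher in subcortex than in cortex for 8 of the 9 carriers, Slc16a1 being the exception, beside 49.7% of 13168 genes tested in both. The median difference, subcortex minus cortex, was 0.57 over the 9 and -0.00 over all these genes. It was 1.38 for Slc38a5, 1.12 for Slc7a1, 1.03 for Slc2a1 and 0.81 for Slc7a5, and -0.14 for Slc16a1. With the trend of genes of like transcript length and GC content removed (described below), the difference was 1.54 for Slc38a5, 0.93 for Slc2a1, 0.62 for Slc7a5 and 0.60 for Slc7a1, and that of Slc6a6 was 0.14, against 0.46 with the trend left in. Slc2a1, Slc7a1, Slc7a5 and Slc6a6, 4 of the 9, had lower values in vKO in cortex and higher ones in subcortex, beside 23.6% of the 13168 genes. Of these 4, Slc7a1 was called in cortex and Slc2a1 in subcortex, and Slc7a5 and Slc6a6 in neither. With the trend removed, Slc6a6 stood at -0.015 in cortex. A test of tissue against genotype needs values per library, so these differences were not tested.

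In vKO mice 2 of the 9 carriers had more FPKM in cortex than in subcortex, against 8 of the 9 in WT mice. The same shares over all genes were not computed, so these counts cannot be read as particular to the carriers. The tables of the tissues may have been scaled separately, and the levels and sums here still hold the length and GC trend described below. Slc7a1 stood at 6.37 FPKM in vKO cortex and 7.98 in vKO subcortex, against 14.1 in WT cortex and 7.44 in WT subcortex. Summed over the 9 carriers the level was 115 FPKM in vKO cortex and 153 in WT cortex, and 141 in vKO subcortex and 127 in WT subcortex. Slc3a2 led the order of levels in all 4 groups, with 26.7 to 32.2 FPKM, and Slc38a5 closed it. Slc6a6, Slc7a5, Slc2a1 and Slc38a3 lay between 7.73 and 28.2 FPKM. Neighbours in this order cannot be told apart without a spread, such as Slc38a3 and Slc7a1 in WT cortex, both at 14.1 FPKM. The level of Slc38a3 was 11.1 times that of Slc38a5 in vKO cortex, against 2.08 times in WT cortex, and 7.16 times in vKO subcortex, against 3.89 times in WT subcortex.

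By the distance between pairs of log2 ratios in cortex and subcortex, over 12334 genes at 1 FPKM or more, Slc7a1 lay closest to Spen, Celsr2 and Pcdh1 (distances of 0.02 to 0.03). Celsr2 had 9.35 FPKM in vKO cortex and 20.6 in WT cortex, and 11.3 in vKO subcortex and 10.5 in WT subcortex. Slc38a5 had no neighbour at such distances. The closest were the small RNA genes Snora47, Scarna8 and Mir6336, at 0.24, 0.29 and 0.82. This likeness rests on 2 ratios a gene.

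Other carriers were described from 7 lists of 70 genes, of which 68 were matched. In cortex 16 of the 63 tested fell and 4 rose under q-values from the authors' deposited table, with a median log2 ratio of -0.17, or -0.13 with the length and GC trend described below removed. All other genes with an Slc symbol, a group added after values had been seen, had 42 of 232 tested fall (18.1%, beside 11.3% of all tested genes) and 8 rise, with a median of -0.13, or -0.08 with that trend removed. This group was picked by symbol alone, so it overlaps the 7 lists, and not all of its genes are carriers. In subcortex 0 of 64 tested list genes fell and 1 rose under q-values from the authors' deposited table, with a median of 0.02. At an unadjusted p-value under 0.05 in that table, the lower ones numbered 2 and the higher ones 1. Of the other genes with an Slc symbol, 3 of 246 tested fell in subcortex (1.22%, beside 0.262% of all tested genes) and 2 rose, with a median of 0.03. Slc6a20a, the list gene that rose, is counted among these 2, and Slc2a4rg-ps, whose symbol is that of a pseudogene, among the 3. Among those that fell was Slc22a8, an organic anion carrier, with 1.09 FPKM in vKO subcortex and 2.97 in WT subcortex (log2 ratio -0.93), a lower ratio than that of Slc38a5.

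Of 8 other SLC38 genes, 5 fell in cortex under q-values from the authors' deposited table and 0 rose. Slc38a7 had 5.32 FPKM in vKO and 8.06 in WT (log2 ratio -0.52), Slc38a1 had 24.6 in vKO and 34.5 in WT (-0.47), and Slc38a6 had 1.79 in vKO and 2.75 in WT (-0.43). With that trend removed, Slc38a1 stood at -0.04 and the median of the 8 at -0.10, against -0.41 with the trend left in. Of 9 tested SLC7 and SLC3 genes, Slc7a8 and Slc7a14 fell in cortex. Slc7a8, a light chain that also pairs with Slc3a2, had 1.94 FPKM in vKO and 4.36 in WT (-0.87), and Slc7a14 had 4.66 in vKO and 7.68 in WT (-0.62). Of 5 other tested SLC2 genes, Slc2a13, a myo-inositol carrier, fell in cortex, with 4.04 FPKM in vKO and 5.79 in WT (-0.43). The neuronal glucose carrier Slc2a3 had 16.5 FPKM in vKO cortex and 16.6 in WT cortex, and 24.4 in vKO subcortex and 24.3 in WT subcortex. Slc2a3 was thus at nearly equal values in the subcortex where Slc2a1 rose.

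Of 11 tested genes in the list of other SLC16 genes with Bsg and Emb, Slc16a3 rose in cortex and Slc16a7 fell. Slc16a3, which exports lactate from glycolytic cells, had 6.90 FPKM in vKO cortex and 1.503 in WT cortex (log2 ratio 1.66, q-value 0.000806 in the authors' deposited table). Slc16a7 had 8.58 FPKM in vKO and 12.9 in WT (-0.54). Bsg, an accessory protein of some SLC16 carriers, had 170 FPKM in vKO cortex and 165 in WT cortex (0.04). In the same tissue Slc16a1, at -0.30, was not called. Of 5 tested SLC1 genes, 2 fell in cortex, the glial glutamate carrier Slc1a2 (-0.62) and the neutral amino acid carrier Slc1a4 (-0.60). In the SLC6 family, Slc6a17 fell in cortex (-0.42, or -0.09 with that trend removed). Slc6a20a, a carrier of imino acids, rose in subcortex, with 8.29 FPKM in vKO and 4.55 in WT (0.74). Of 17 tested genes for lipids, vitamins and iron, 3 rose and 3 fell in cortex. The fatty acid receptor Cd36 rose (1.13), while the transferrin receptor Tfrc fell (-0.56) and the lipoprotein receptor Lrp8 fell (-0.54).

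**Figure D3:**
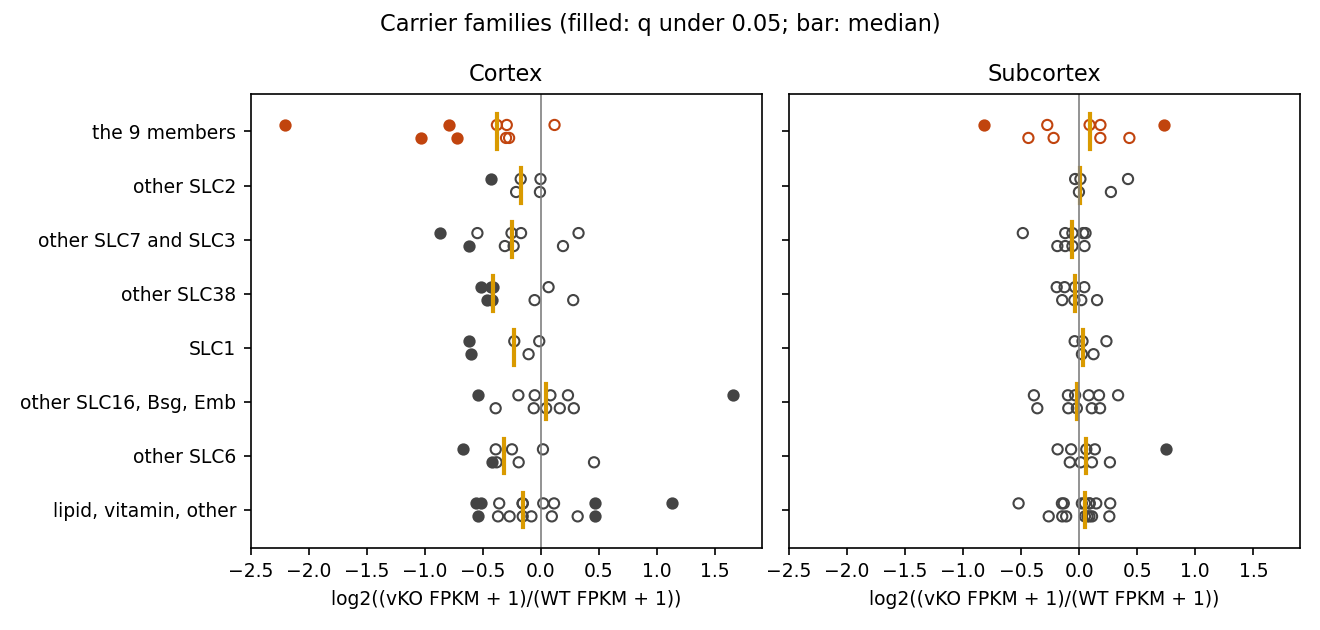
Log2((vKO FPKM + 1)/(WT FPKM + 1)) of tested genes in the 9 carriers and in 7 lists of other carriers, in cortex and subcortex; each point is a gene, filled where its q-value is under 0.05, and the bar is the median. In cortex the filled points lie mostly left of 0, with Slc16a3 at 1.66 and Cd36 at 1.13 among the exceptions, and in subcortex 3 points are filled: Slc38a5, Slc2a1 and Slc6a20a.

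Markers of the cells that hold these carriers moved too, and differently in the tissues. In cortex 5 of 19 tested endothelial markers rose and 5 fell under q-values from the authors' deposited table, and their median log2 ratio was -0.01, or 0.11 with the length and GC trend described below removed. Cldn5 had 24.6 FPKM in vKO and 46.8 in WT, Kdr had 5.30 in vKO and 10.98 in WT, and Emcn had 8.03 in vKO and 3.30 in WT. The summed level of the 20 endothelial markers was 131 FPKM in vKO cortex and 141 in WT cortex, and none was at 0. In subcortex 3 of 19 rose and 0 fell, and the median was 0.39. Pecam1 had 10.1 FPKM in vKO and 5.12 in WT, Cdh5 had 6.45 in vKO and 3.62 in WT, and Sox17 had 2.06 in vKO and 0.839 in WT. Their summed level was 144 FPKM in vKO subcortex and 119 in WT subcortex. The ratio of Slc2a1 in subcortex was 0.34 above the endothelial median, and that of Slc7a5 was 0.04 above it. On the same scale Slc38a5 stood at -1.22 and Slc16a1 at -0.83. The subcortex ratios of Slc7a1, Slc3a2 and Slc6a6, positive before this subtraction, lay below that median.

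**Figure D4:**
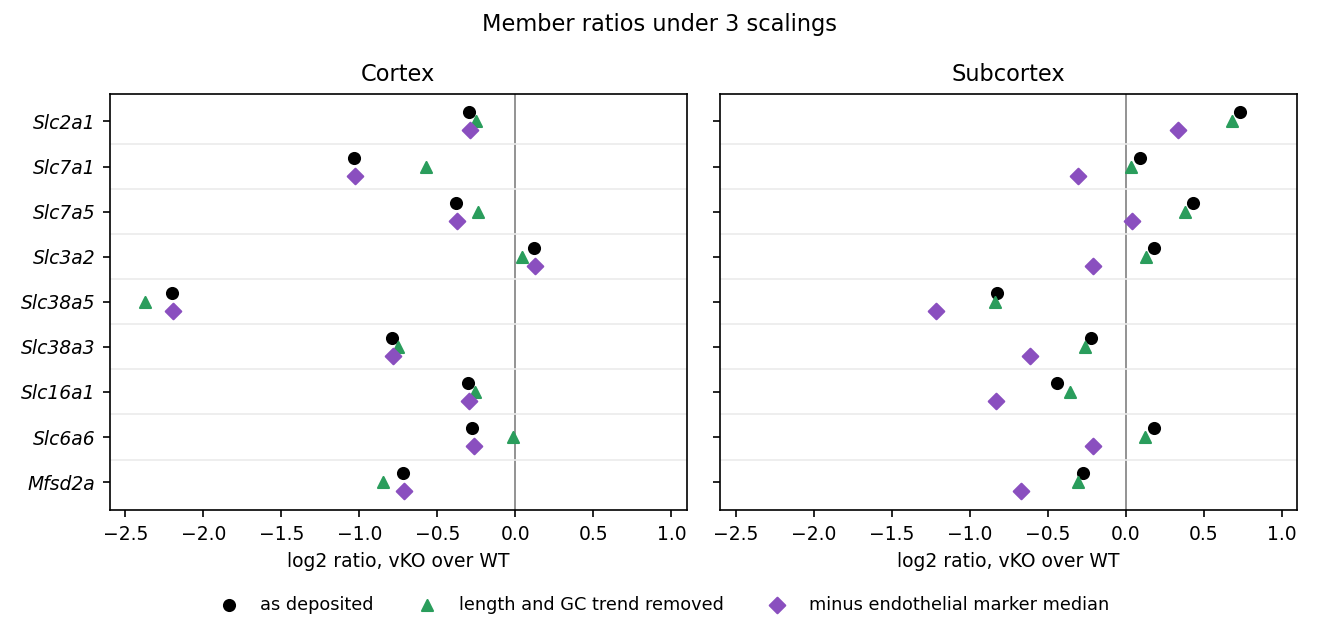
Log2((vKO FPKM + 1)/(WT FPKM + 1)) of the 9 carriers in cortex and subcortex. Circles, labelled as deposited, are these ratios of the deposited FPKM without further scaling. Triangles have the trend of genes of like transcript length and GC content removed, and diamonds are minus the median of the endothelial markers. In cortex the triangle of Slc7a1 lies at -0.57, right of its circle at -1.03, and in subcortex all diamonds lie left of their circles, Slc2a1 remaining right of 0 at 0.34.

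Transcript length moved with the ratios in cortex. Across 13458 genes, which are not independent replicates, Spearman's correlation of log2 ratio with length was -0.551 in cortex, and 0.02 across 13607 genes in subcortex. Slc7a1, with the longest transcript of the 9 at 7179 bases, had a ratio of -1.03 in cortex, while genes of like length and GC content had a median of -0.46. Slc6a6, at 6186 bases, had -0.27, and its like genes had -0.26. Slc38a5 (1983 bases) and Mfsd2a (2151 bases) had like genes at 0.17 and 0.13, so their ratios with the trend removed were lower still, -2.37 and -0.85. The neighbours of Slc7a1 named above, Spen, Celsr2 and Pcdh1, have transcripts of 12299, 10598 and 5416 bases.

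Response genes known to share control with some carriers were set beside them. Slc2a1 is a known target of hypoxia-inducible factors. Of 9 tested hypoxia genes, 6 rose in cortex under q-values from the authors' deposited table, with a median log2 ratio of 0.66, and Slc2a1 was not called there. In subcortex, where Slc2a1 rose, 0 of 9 rose or fell, with a median of -0.03, and 2 were lower at an unadjusted p-value under 0.05 in that table. Bnip3 had 41.5 FPKM in vKO cortex and 16.8 in WT cortex, and 34.1 in vKO subcortex and 33.7 in WT subcortex. Slc7a5 and Slc3a2 are known targets of the amino acid stress factor ATF4. Of 11 tested genes of that response, 3 rose in cortex (median 0.32, or 0.12 with the length and GC trend removed), among them Psat1, with 40.6 FPKM in vKO and 27.7 in WT. In subcortex 0 of 10 were called (median 0.03), with 1 higher at an unadjusted p-value under 0.05 in that table.

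Reck itself had 3.23 FPKM in vKO cortex and 2.91 in WT cortex, and 3.49 in vKO subcortex and 2.37 in WT subcortex, with q-values of 0.639 and 0.333 in the authors' deposited table. A value over the whole gene in whole tissue does not check a deletion in vascular cells. Other cell types also differed in cortex: the erythroid markers summed to 5472 FPKM in vKO and 310 in WT, with Hemgn at 0 in WT, and 8 of 10 microglial markers rose under q-values from the authors' deposited table. In cortex 3 of 11 astroglial markers rose and 3 fell (median log2 ratio 0.15), 1 of 7 neuronal markers fell (-0.11), 1 of 9 pericyte markers rose and 3 fell (-0.15), and 3 of 8 meningeal genes rose and 1 fell (0.29). With the length and GC trend removed, these medians were 0.09 for astroglial, 0.05 for neuronal, 0.12 for pericyte and 0.40 for meningeal genes, so the neuronal and pericyte medians changed sign. Of 6 choroid plexus markers 0 were called in cortex (-0.04, or -0.27 with the trend removed), with 1 lower at an unadjusted p-value under 0.05 in that table. In subcortex 1 of 8 tested pericyte markers rose (median 0.38) and 1 of 8 meningeal genes fell (0.16). Choroid plexus markers had 0 of 6 called in subcortex (0.38), with 3 higher at an unadjusted p-value under 0.05 in that table. The astroglial, microglial, neuronal and erythroid lists had 0 called there (medians 0.12, 0.04, -0.03 and 0.26), and at that unadjusted p-value 1 astroglial and 1 microglial marker were higher. The cortex marker Neurod6 stood at 168 FPKM in vKO cortex and 98.3 in WT cortex, against 6.08 and 6.61 FPKM in vKO and WT subcortex. The thalamic gene Tcf7l2 fell in cortex, with 1.07 FPKM in vKO and 4.71 in WT. The part of these differences in the carriers' values was not tested.

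Slc38a5 is X-linked, and markers of sex differed with genotype. Xist stood at 18.6 FPKM in vKO cortex and 0.0417 in WT cortex, and at 10.2 in vKO subcortex and 0.0369 in WT subcortex. Of the 4 Y-linked genes, 3 fell in cortex and 2 in subcortex under q-values from the authors' deposited table. Eif2s3y had the lowest ratio of the 4 in both tissues. It stood at 15.8 FPKM in vKO cortex and 30.4 in WT cortex, and at 13.3 in vKO subcortex and 27.6 in WT subcortex. RNA of Y-linked genes was thus present in vKO as well as in WT, while Xist was near 0 in WT only. Over 482 tested genes of the X chromosome the median log2 ratio was -0.02 in cortex and -0.04 in subcortex, against 0.00 over autosomal genes in both tissues. In cortex 14.7% of these X-linked genes fell, against 11.2% of autosomal genes, and in subcortex 1.04% fell, against 0.219% of autosomal genes. Slc38a5 is counted among the 71 X-linked genes that fell in cortex and the 5 that fell in subcortex. The sex of the mice and their genotype cannot be told apart in these values.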

How the data were processed

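Brain RNA of 4 groups of 3 libraries was measured from TruSeq stranded total RNA libraries. The submitters' processing notes name mm10, HISAT2 2.0.1, Cufflinks 2.2.1 and Cuffdiff, in no stated order. The deposited tables give 1 FPKM value per gene and group. Each p-value and q-value was also deposited by the authors, per the file headers. Columns coded W and M were read as WT and vKO, the genotypes of the labels. The q-values matched a Benjamini-Hochberg adjustment over tested genes to within 5.2e-07. No test over libraries could be run, and the depth is unknown. The annotation used and whether counting used strand are not given in the sources used here.

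Ratios were computed with pandas 2.3.3 and a pseudocount of 1. Transcript length, GC content and exons came from GENCODE M21 (same build, longest protein-coding transcript), matched for 99.0% of tested cortex and 99.1% of tested subcortex genes, and a trend over 100 cells of length and GC was removed as an alternative, checked on simulated data. A blastn 2.17.0 search found 0 members with a copy at 95% identity over 200 bases in another gene. Positions start at 1. Members and lists were chosen with earlier results of these data known. All 9 members were named, and per list up to 3 called genes with the largest ratio, or the 2 highest. Cortex values of Bsg and Slc2a3, Hemgn and the group of all Slc symbols were added after values had been seen. For the lowest 2 members called in cortex, the 3 nearest genes were named. Promoters came from RefSeq GRCm38.p6.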

Additional observations from a re-analysis of the deposited data

How the results depend on the processing

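In cortex the count of 4 carriers lower and 0 higher was the same at a q-value under 0.01, with the authors' p-values adjusted over genes at 1 FPKM or more, and with a minimum of 1.5-fold. In subcortex the count of 1 lower and 1 higher held under the last 2 of these. Those 2 settings left the counts over all genes unchanged as well, at 62 higher and 36 lower, so they tell nothing particular about the carriers. At a q-value under 0.01 the subcortex count was 0 lower and 0 higher, where 0 of all 13735 tested genes passed. None of the called ratios changed sign with the length and GC trend removed or with the endothelial median subtracted. Another pseudocount cannot change a sign, since it is added to both values. Centring subtracted medians of 0.004 in cortex and -0.0007 in subcortex, too small to change the sign of a called ratio. The same holds for the endothelial median in cortex, -0.007. Without a pseudocount the ratio of Slc38a5 in cortex was -3.29, and with 0.1 it was -3.12. Minus the endothelial median, Slc7a1, Slc3a2 and Slc6a6 in subcortex changed sign to -0.30, -0.21 and -0.21. No paired analysis was possible because the tables hold 1 value per group, and for the same reason no library could be left out.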
